A study of Mus musculus with 6 samples.

Results

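The miR-15/miR-16/miR-195/miR-497 family was followed in small RNA libraries from extracellular vesicles of mouse muscle, labelled as exosomes, which are small vesicles shed by cells. Vesicles came from old muscle in 3 libraries and from young muscle in 3 libraries, and no genotype, strain, exact age, sex or muscle name was used here beyond these labels. Nothing in the labels ties the replicates to separate animals, and p-values here therefore cover the spread among 6 libraries, part or all of which may be technical. The members were the 6 loci of the 5 mature strands miR-15a-5p, miR-15b-5p, miR-16-5p, miR-195a-5p and miR-497a-5p, plus the 6 loci on the opposite arms of the same hairpins. They made up 12 of the 2110 mature miRNA loci in the deposited count table. The 6 loci of the 5p strands are called guides here, and the partner strand of each hairpin is called the opposite arm.

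A miRNA hairpin is cut into a short duplex, and usually one strand of it, the guide, is kept in the silencing complex and pairs with messenger RNAs through its seed, the bases near its 5′ end. The strands of this family share a seed and are known to restrain cell division by lowering cyclins, cyclin-dependent kinases and the survival factor Bcl2. In mice, family members have been tied to cell cycle exit of heart muscle cells after birth, and miR-195 and miR-497 to quiescence of muscle stem cells.

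The guide sequences are shown because they differ outside the seed, which decides how well a read can be told from its relatives. They are RefSeq sequences on GRCm38.p6, the assembly also called mm10, 5′ to 3′, with the seed (bases 2 to 8) in capitals.
miR-16-5p: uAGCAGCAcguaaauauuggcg
miR-15a-5p: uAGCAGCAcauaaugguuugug
miR-15b-5p: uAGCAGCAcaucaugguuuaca
miR-195a-5p: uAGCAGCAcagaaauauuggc
miR-497a-5p: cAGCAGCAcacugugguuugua
miR-322-5p: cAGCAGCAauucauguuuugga
All 5 guides carry the seed AGCAGCA, as does miR-322-5p, a strand from chromosome X that is not a member. Positions are counted from 1 at the 5′ end of miR-16-5p. miR-195a-5p differs from miR-16-5p at 2 of 21 positions, G10A and U11G, both just beyond the seed. miR-15a-5p and miR-15b-5p differ from each other at 4 of 22 positions. miR-497a-5p is the most distant from miR-16-5p, with 11 of 22 positions different.

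The guides come from 3 genomic clusters of 2 hairpins each. The cluster of Mir15a and Mir16-1 (chr14:61631894-61632096, minus strand) lies in an intron of Dleu2, a long non-coding transcript. The cluster of Mir15b and Mir16-2 (chr3:69009775-69009981, plus strand) lies in an intron of Smc4, which encodes a condensin subunit needed for chromosome condensation. The cluster of Mir497 and Mir195a (chr11:70234730-70235121, plus strand) lies in no gene of the GENCODE M21 annotation, miRNA genes aside. The arms of the 2 hairpins are 80 bases apart at Mir15a and Mir16-1, 83 bases apart at Mir15b and Mir16-2 and 271 bases apart at Mir497 and Mir195a. Both Mir16-1 and Mir16-2 give rise to the identical strand miR-16-5p.

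**Figure D1:**
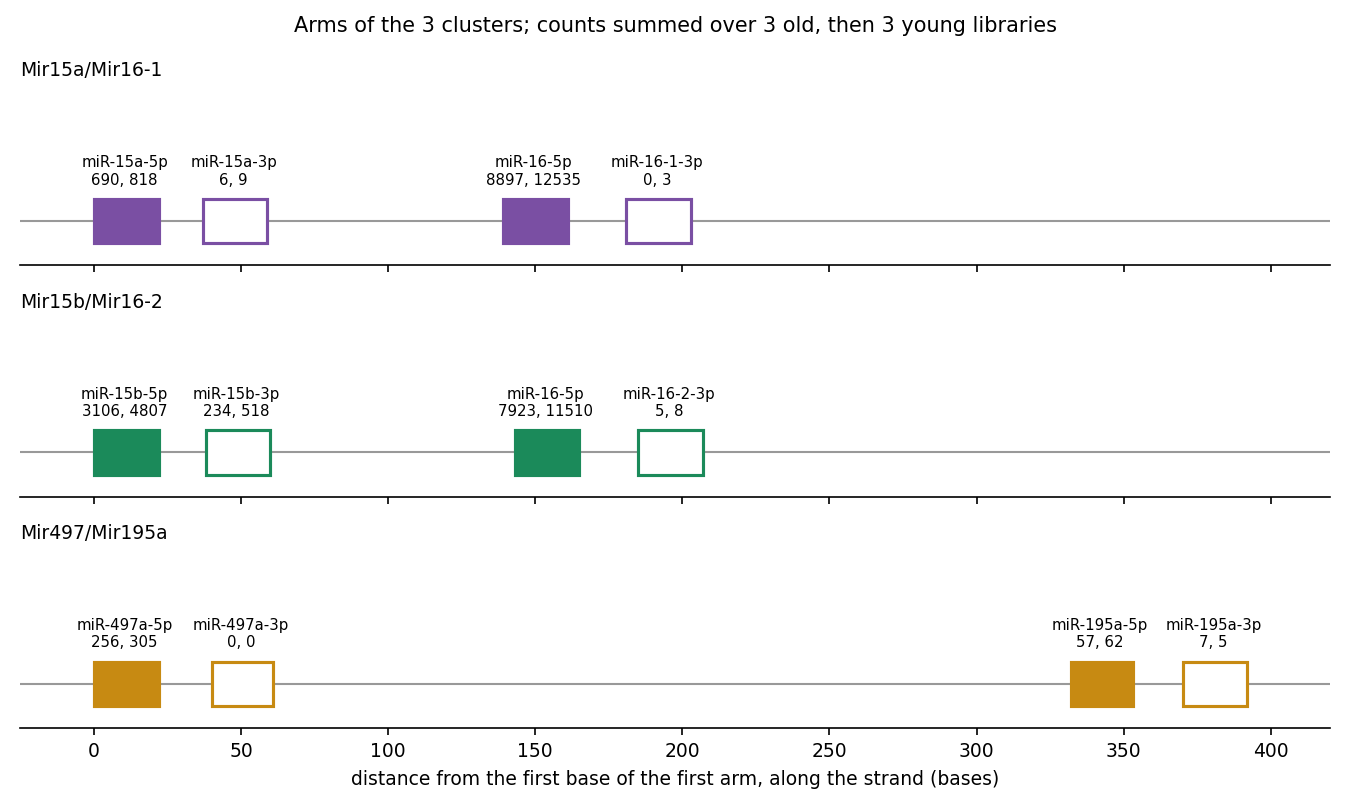
Map of the 12 arm loci by distance in bases from the first arm of each cluster, along its strand, with filled boxes for guides and open boxes for opposite arms. The numbers are raw counts summed over the 3 old and then the 3 young libraries, not scaled for depth. Depth was lower in every old than in every young library. Counts of miR-16-5p placed at Mir16-1 were 8897 and 12535, and those of miR-195a-5p were 57 and 62. Reads of miR-16-5p cannot be assigned to 1 of its loci.

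Depth was 904892 to 1417733 counts in the old and 1459826 to 1706396 in the young libraries. Levels are given as CPM, the count scaled to a common library size with edgeR's TMM method. A level is thus a share of the counted miRNA pool, and fewer cells or vesicles of a type cannot be told apart from less RNA in each. Old replicate 1 stood apart: the most abundant miRNA, miR-21a-5p, took 35.4% of its counts. The other old libraries had 49.0% and 52.9%, and the young ones 49.5% to 51.9%. Of 7 skeletal muscle markers, 6 held counts and summed to 49518 to 90418 CPM in old and 50849 to 61142 CPM in young libraries. The marker without counts was miR-486a-5p. That sum was mostly miR-206-3p (39284 to 79255 CPM in old and 46023 to 55441 CPM in young), whereas miR-1a-3p, miR-133a-3p, miR-133b-3p and miR-499-5p were each higher in every old than in every young library. The most abundant of these 4, miR-133a-3p, had 3745 to 5555 CPM in old and 2132 to 2485 CPM in young libraries. The 4 red blood cell markers, of which 3 held counts and miR-486a-5p again none, summed to 41265 to 48359 CPM in old and 40575 to 42835 CPM in young libraries. Of 6 leukocyte markers, 5 held counts and summed to 931 to 1041 CPM in old and 1159.9 to 1372 CPM in young libraries, and miR-142a-3p was at 0. The lower sum came from miR-155-5p alone (382 to 434 CPM in old and 646 to 841 CPM in young); miR-142a-5p and miR-146a-5p were higher in every old library, and miR-223-3p and miR-150-5p overlapped. All 5 smooth muscle and fibroblast markers held counts and summed to 38598 to 43473 CPM in old and 28335 to 30416 CPM in young libraries. Of these 5, miR-143-3p, miR-145a-3p and miR-199a-3p were higher in every old library, miR-145a-5p overlapped, and miR-214-3p was lower in every old library (628 to 873 CPM in old and 919 to 1097 CPM in young). Both endothelial markers, miR-126a-3p and miR-126a-5p, were at 0. Liver markers had 1 of 2 with counts (170.4 to 201 CPM in old and 162 to 180.5 CPM in young, miR-122-5p at 0), and the 4 epithelial markers, all with counts, summed to 11.6 to 17.9 CPM in old and 9.63 to 11.7 CPM in young libraries. Each marker at 0 overlaps a locus on the other strand, and of the 106 loci in the table that overlap another, 104 were at 0 in every library, so these zeros do not measure absence. Of the 347 loci that passed a filter on low counts, 14.1% were higher and 13% lower in every old than in every young library. The part of these cell types in the family's values was not tested.

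The family as a whole was a small part of the vesicle miRNA pool and was mostly miR-16-5p. Its 12 loci took 0.711%, 0.559% and 0.493% of all counts in old replicates 1, 2 and 3, against 0.657%, 0.657% and 0.642% in the young ones. The mean was 0.588% ± 0.112 in old and 0.652% ± 0.00889 in young libraries (SD, n = 3 each). The 95% exact binomial interval of each share was narrow, for instance 0.694% to 0.729% in old replicate 1, and covers counting error only. The old values lay on both sides of the young ones, with the high value in old replicate 1. These shares are of all counts, of which miR-21a-5p took 35.4% in old replicate 1 and 49.0% to 52.9% in the other libraries. A smaller part for miR-21a-5p leaves a larger part for all other loci, so the overlap of the groups depends on this total. Its part in the family's share was not tested. miR-16-5p made up 76.9% to 83.6% of the family's counts in old and 78.3% to 79.1% in young libraries.

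The 5 guides had the same order of level in every library. With the identical copies of miR-16-5p summed, miR-16-5p averaged 4620.4 ± 676 CPM in old and 5169 ± 272 CPM in young libraries (SD, n = 3 each), rank 26 of 317 tested mature miRNAs by mean CPM over all libraries. miR-15b-5p ranked 58, miR-15a-5p 115, miR-497a-5p 159 and miR-195a-5p 258. The ranges of neighbouring guides did not overlap: the highest of all 6 libraries was 22.8 CPM for miR-195a-5p, and the lowest was 55.6 CPM for miR-497a-5p. The highest value of miR-497a-5p, 88.6 CPM, lay below the lowest of miR-15a-5p, 157 CPM. miR-15a-5p reached at most 209 CPM and miR-15b-5p at least 765 CPM. Summing the copies was a separate fit with its own scaling, so these CPM differ slightly from those given per locus. These strands are 21 or 22 bases long, so no length correction was made.

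**Figure D2:**
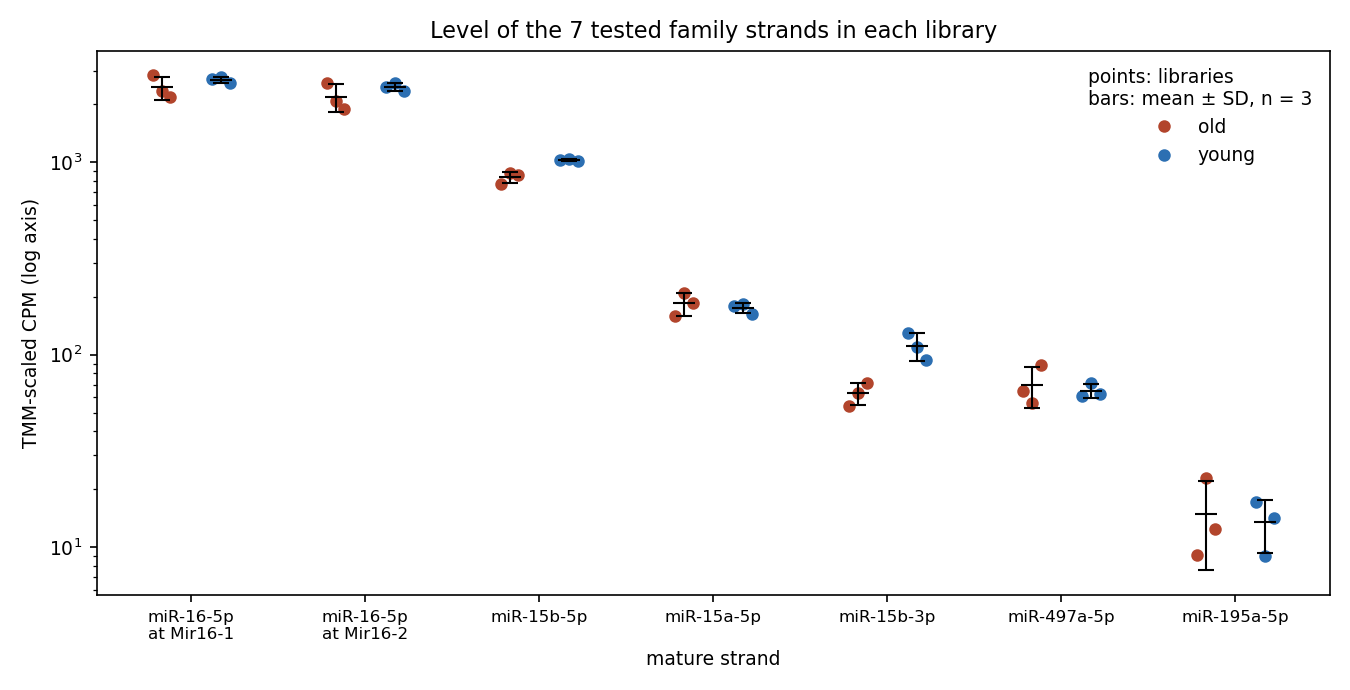
TMM-scaled CPM of the 7 tested strands on a log axis, old beside young, with 1 point per library and bars for mean ± SD (n = 3). The old and young points of miR-15b-5p and miR-15b-3p do not overlap, and those of the other 5 loci do.

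The comparison of old with young muscle asked whether vesicles carry different relative amounts of the family at the 2 ages. No member passed edgeR's quasi-likelihood test at an adjusted p of 0.05 (Benjamini-Hochberg over 347 tested loci), and the strand closest to the threshold was miR-15b-3p, the opposite arm of Mir15b, at 0.568 times its young level. Its guide partner miR-15b-5p was at 0.815 times its young level, and both had old values below all young values. The other 5 tested loci had overlapping groups and folds between 0.89 and 1.13. Of the 12 member loci 7 passed the filter on low counts, which were all 6 guides and miR-15b-3p.

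Of these 7 members 0 were called, where 4.32% of all tested loci were (3.46% higher and 0.865% lower in old). At an unadjusted p of 0.05, edgeR had 1 of the 7 (14.3%), miR-15b-3p, against 22.5% of all tested loci. DESeq2 called 1 of the 7, again miR-15b-3p (adjusted p = 0.0182), where it called 6.76% of the 340 loci to which it gave an adjusted p. The groups did not overlap at 2 of the 7 (28.6%), both lower in old, where 27.1% of all tested loci did not overlap in either direction, 13% were lower in old without overlap and 14.1% were higher. The log2 fold changes, old over young, ran from -0.82 to 0.17, with 4 below and 3 above 0. Their median was -0.13, and that of all tested loci was 0.04, with 47.6% of them below 0. Among the 4 members below 0 were both loci of miR-16-5p, whose reads cannot be told apart. The median of the members was the value at Mir16-1. Both members without overlap are arms of the same hairpin, Mir15b.

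**Figure D3:**
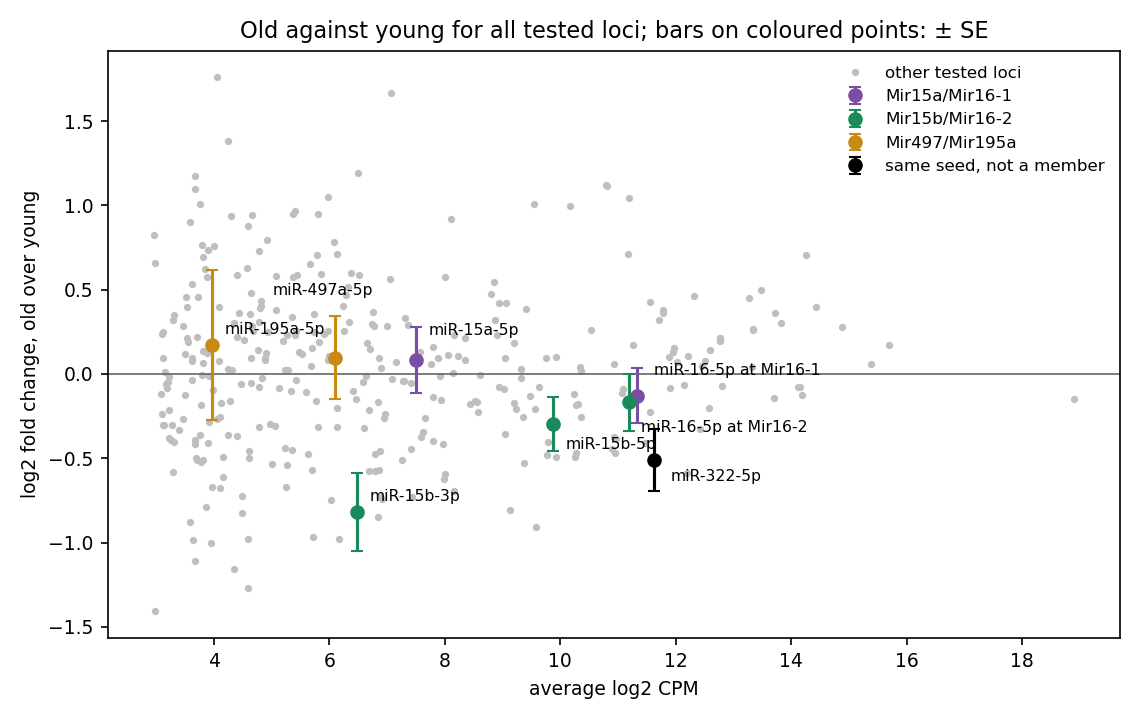
Log2 fold change, old over young, against average log2 CPM for all 347 tested loci, with the family's members coloured by cluster and bars for ± SE. The arms of Mir15b lie lowest among the members, at -0.30 for miR-15b-5p and -0.82 for miR-15b-3p, and miR-322-5p lies at -0.51.

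At the cluster of Mir15b and Mir16-2, miR-15b-5p (MIMAT0000124, chr3:69009775-69009796) had 772, 882 and 860.1 CPM in old replicates 1, 2 and 3, against 1033, 1035 and 1018 CPM in the young ones. All old libraries lay below all young ones, and the young libraries were close to each other. The means were 838 ± 58.1 CPM in old and 1029 ± 9.52 CPM in young libraries (SD, n = 3 each), and the log2 fold change of -0.30 ± 0.16 (SE) did not pass edgeR's test (adjusted p = 0.293). An approximate 95% interval from the SE ran from -0.61 to 0.02. Without old replicate 1 its log2 fold change was -0.22 (adjusted p = 0.371 by edgeR). Beside this, 4 of 7 skeletal muscle, 2 of 6 leukocyte and 3 of 5 smooth muscle and fibroblast markers were higher in every old than in every young library, while miR-155-5p and miR-214-3p were the listed markers that were lower in every old library. Of all 347 tested loci, 14.1% were higher and 13% lower in every old than in every young library. The listed markers include miR-486a-5p and miR-142a-3p, whose zeros do not measure absence. The part of these cell types in the levels of the Mir15b arms was not tested.

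The strand made from the other side of the same hairpin, miR-15b-3p (MIMAT0004521, chr3:69009813-69009834), has its own seed and pairs with other targets. It is shown inside the Mir15b hairpin because it had the largest fold difference among the tested members. The capitals mark the 2 mature arms, miR-15b-5p first and miR-15b-3p after the loop (chr3:69009772-69009835, plus strand, GRCm38.p6, RefSeq).
Mir15b: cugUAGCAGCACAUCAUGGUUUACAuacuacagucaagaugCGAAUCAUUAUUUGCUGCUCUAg
miR-15b-3p with its seed in capitals: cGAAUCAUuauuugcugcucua
The seed of miR-15b-3p is GAAUCAU, so it does not belong to the seed family of its guide.

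miR-15b-3p held 54, 88 and 92 counts in old replicates 1, 2 and 3, against 189, 183 and 146 counts in the young ones. Scaled to library size, these were 54.4, 63.0 and 71.4 CPM in old and 130.3, 110.1 and 93.7 CPM in young libraries. Every old library lay below every young one, and the gap between the groups was from 71.4 to 93.7 CPM. The means were 63.0 ± 8.48 CPM in old and 111 ± 18.4 CPM in young libraries (SD, n = 3 each), and the log2 fold change was -0.82 ± 0.23 (SE; unadjusted p = 0.00268, adjusted p = 0.0545 by edgeR's quasi-likelihood test). The adjusted p lay between 0.0182 and 0.217 over 13 other settings and passed 0.05 in 4 of them, with the log2 fold change between -0.93 and -0.71 throughout. It passed without old replicate 1 (log2 fold change -0.71, adjusted p = 0.0332 by edgeR) and without old replicate 3 (-0.92, adjusted p = 0.0390). Over all loci, edgeR called 45 of 359 and 29 of 360 in these settings, against 15 of 347 with all libraries. Without old replicate 1 the unadjusted p of miR-15b-3p was 0.00342 by edgeR. miR-15b-3p did not pass without old replicate 2 (adjusted p = 0.194 by edgeR) or without young replicate 1, 2 or 3 (0.217, 0.146 and 0.0810).

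Within the Mir15b hairpin, the opposite arm took 6.59%, 6.67% and 7.67% of the hairpin's counts in old replicates 1, 2 and 3, against 11.2%, 9.61% and 8.42% in the young ones. This share needs no scaling between libraries. The old shares lay below the young ones, but the exact 95% binomial interval of young replicate 3 (7.16% to 9.83%) overlapped those of all 3 old libraries, whose upper bounds were 8.15% to 9.32%. The mean share was 6.97% ± 0.602 in old and 9.74% ± 1.39 in young libraries (SD, n = 3 each). On the log2 scale the ratio of guide to opposite arm was 0.51 higher in old, and 0.40 to 0.63 when any 1 library was left out. This ratio was taken as a description, without a test.

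**Figure D4:**
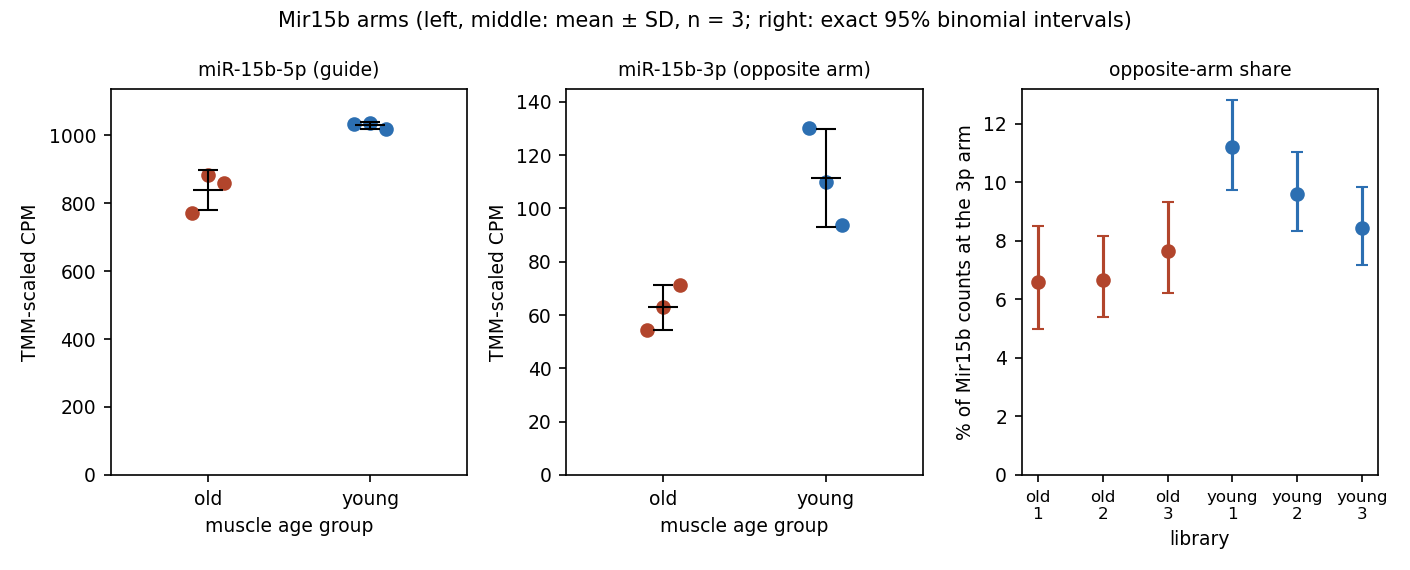
The left and middle panels show TMM-scaled CPM of miR-15b-5p and miR-15b-3p by library with mean ± SD (n = 3), and the right panel shows the percentage of Mir15b counts on the 3p arm with exact 95% binomial intervals. Old libraries sit at 54.4 to 71.4 CPM of miR-15b-3p and young ones at 93.7 to 130.3 CPM.

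miR-16-5p (MIMAT0000527), the family's most abundant strand and a known repressor of cyclin D1 and Bcl2, is shared by 2 clusters. At Mir16-1 (chr14:61631936-61631957) it had 2829, 2356 and 2174 CPM in old replicates 1, 2 and 3, against 2711, 2764 and 2572 CPM in the young ones. At Mir16-2 (chr3:69009918-69009939) it had 2599, 2077 and 1898 CPM in old and 2476, 2572 and 2337 CPM in young libraries. At both loci old replicate 1 lay above all young libraries and old replicates 2 and 3 below them, so the groups overlapped. The log2 fold change was -0.13 ± 0.16 (SE, adjusted p = 0.731) at Mir16-1 and -0.17 ± 0.17 (adjusted p = 0.637) at Mir16-2 by edgeR. Without old replicate 1 these were -0.22 (adjusted p = 0.333) and -0.29 (adjusted p = 0.201).

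The loci of miR-16-5p carry the same sequence, so that a read cannot be assigned to one of them and the counts at each do not measure its own activity. Mir16-1 held 52.1% to 53.4% of the miR-16-5p counts in old and 51.8% to 52.4% in young libraries. The opposite arms do differ between the hairpins, but they held few counts: miR-16-1-3p had 3 and miR-16-2-3p had 13 counts over all 6 libraries, beside 40865 counts of miR-16-5p. At this depth the opposite arms could not show how miR-16-5p divides between the clusters.

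At the cluster of Mir15a and Mir16-1, miR-15a-5p (MIMAT0000526, chr14:61632075-61632096), a close relative of miR-15b-5p, had 158, 209.8 and 186 CPM in old replicates 1, 2 and 3. The young replicates 1, 2 and 3 had 179, 183 and 164 CPM. The old range enclosed the young one. The means were 185 ± 25.8 CPM in old and 175 ± 10.1 CPM in young libraries (SD, n = 3 each), and the log2 fold change was 0.08 ± 0.20 (SE, adjusted p = 0.854 by edgeR), with an approximate 95% interval from -0.30 to 0.47. Its opposite arm miR-15a-3p had 6 counts in old and 9 in young libraries and was not tested.

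At the cluster of Mir497 and Mir195a, miR-497a-5p (MIMAT0003453, chr11:70234730-70234751) had 64.5, 55.9 and 88.5 CPM in old replicates 1, 2 and 3, against 61.4, 71.6 and 62.2 CPM in the young ones. Old replicate 2 was the lowest and old replicate 3 the highest of all 6 libraries. The means were 69.6 ± 16.9 CPM in old and 65.1 ± 5.68 CPM in young libraries (SD, n = 3 each), and the log2 fold change of 0.10 ± 0.25 (SE, adjusted p = 0.854 by edgeR) was -0.13 without old replicate 3.

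miR-195a-5p (MIMAT0000225, chr11:70235062-70235082) was the least abundant guide, with 9, 32 and 16 counts in old replicates 1, 2 and 3 and 25, 15 and 22 counts in the young ones. Scaled, these were 9.07, 22.9 and 12.4 CPM in old and 17.2, 9.02 and 14.1 CPM in young libraries. The groups overlapped, with the high value in old replicate 2. The exact 95% Poisson interval of the 9 counts in old replicate 1 ran from 4.12 to 17.1 counts, so that counting error alone was wide. Its log2 fold change of 0.17 ± 0.45 (SE, adjusted p = 0.854 by edgeR) had an approximate 95% interval from -0.70 to 1.05. Its sign turned without replicate 2 of either group, at -0.30 for the old and -0.038 for the young one. Differences of either sign within this interval could not be told from none, given counting error and the spread from 9 to 32 counts among the old libraries. The opposite arm miR-195a-3p had 7 counts in old and 5 in young libraries. miR-497a-3p had 0 counts in every library, and its locus shares 17 bases with that of miR-497b on the other strand, which also had 0. Reads over overlapping features are left unassigned by the authors' counting command, so the 0 does not measure its level.

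The 3 clusters were set against each other by ratios of guides that stand at a single cluster, within each library, with 0.5 added to each count before a log2 was taken. miR-15a-5p was 0.205, 0.238 and 0.217 times miR-15b-5p in old replicates 1, 2 and 3, against 0.173, 0.177 and 0.161 times in the young ones. All old ratios lay above all young ones. The mean log2 ratio was -2.19 ± 0.108 in old and -2.56 ± 0.0713 in young libraries (SD, n = 3 each), a difference of 0.37 with a two-sided exact permutation p of 0.1, the smallest that 3 against 3 libraries allow. Adjusted over the 6 pairs of guides compared, p was 0.6, and no pair could reach 0.05 in this design. The difference was 0.31 to 0.42 when any 1 library was left out.

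The other 5 ratios had overlapping groups. miR-15b-5p was 9.72 to 15.8 times miR-497a-5p in old and 14.5 to 16.8 times in young libraries. On the log2 scale this was a difference of -0.37 (exact permutation p = 0.2, adjusted 0.6), which became -0.21 without old replicate 3. miR-15b-5p over miR-195a-5p differed by -0.39 (exact permutation p = 0.5, adjusted 1), and leaving out replicate 2 brought that difference to -0.069 (old) or -0.13 (young). The ratios of miR-15a-5p to miR-497a-5p, miR-15a-5p to miR-195a-5p and miR-195a-5p to miR-497a-5p differed by -0.019 to 0.014, each with an exact permutation p of 1. Within the cluster of Mir497 and Mir195a, miR-195a-5p was 0.14 to 0.41 times miR-497a-5p in old and 0.126 to 0.281 times in young libraries.

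As shares of the family's counts with miR-16-5p left out, the cluster of Mir15b and Mir16-2 held 77.9%, 76.5% and 76.1% in old replicates 1, 2 and 3, against 81.8%, 81.1% and 81.9% in the young ones. The cluster of Mir15a and Mir16-1 held 14.9%, 16.9% and 15.6% in old and 12.7%, 13.2% and 12.2% in young libraries. The cluster of Mir497 and Mir195a held 7.21%, 6.59% and 8.25% in old and 5.53%, 5.70% and 5.84% in young libraries. The first share was lower and the other 2 higher in every old than in every young library. The 3 shares sum to the whole and so are not independent. At each cluster the exact 95% binomial interval of old replicate 1 overlapped those of every young library. At Mir497 and Mir195a that of old replicate 2 (5.46% to 7.86%) did so too, with young upper bounds of 6.60% to 6.92%. At Mir15a and Mir16-1 that of old replicate 3 overlapped those of young replicates 1 and 2. The difference at Mir15b and Mir16-2 was -4.78 percentage points, and it was -1.89 with miR-16-5p counted at the locus where the table places it. These shares are a description and carry no test.

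**Figure D5:**
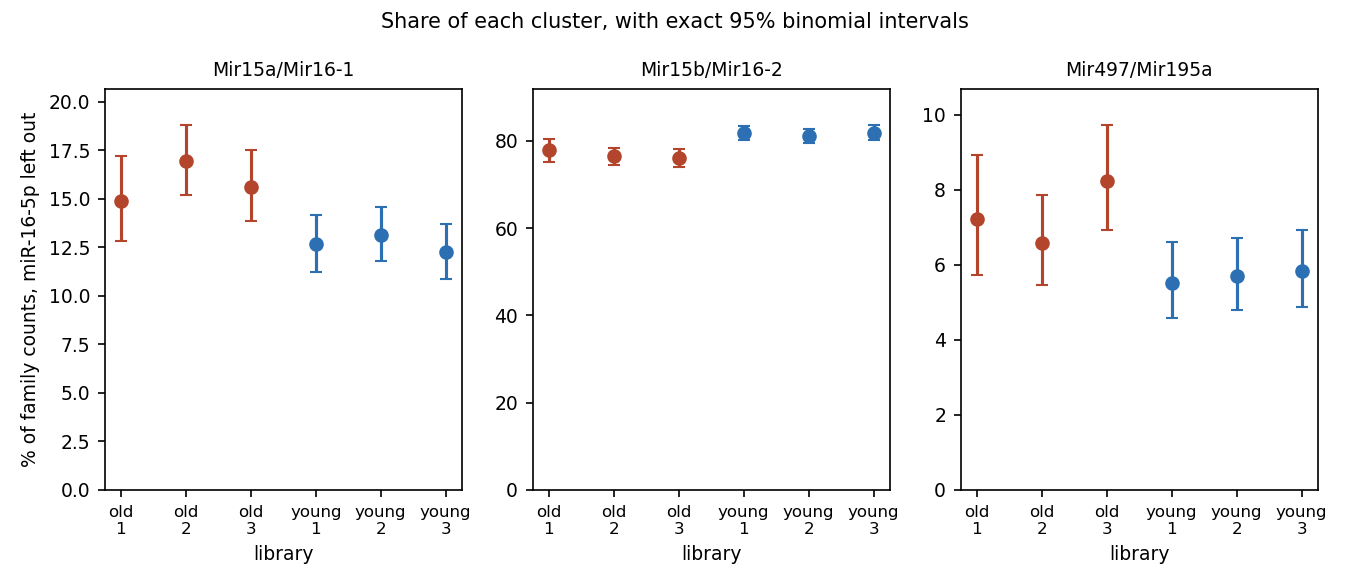
Percentage of the family's counts, with miR-16-5p left out, at each of the 3 clusters, with 1 point per library, exact 95% binomial intervals and axes that differ between panels. The Mir15b and Mir16-2 share is 76.1% to 77.9% in old and 81.1% to 81.9% in young libraries.

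Beyond the members, 5 other loci in the table carry the same seed. Of these, miR-195b, miR-6342, miR-6353 and miR-6419 had 0 counts in all libraries, and the remaining locus was miR-322-5p (chrX:53054306-53054327), the mouse relative of human miR-424, a strand known to promote cell cycle exit of muscle precursors. It had 1961, 2881 and 2919 CPM in old replicates 1, 2 and 3, against 3799, 4139.6 and 3113 CPM in the young ones. All old values lay below all young ones. The log2 fold change of -0.51 ± 0.19 (SE) did not pass edgeR's test (adjusted p = 0.139).

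The guides were not each other's nearest miRNAs across the 6 libraries. Likeness was measured as the root mean square difference of log2 CPM (0.5 added) centred on each miRNA's mean over the 6 libraries, copies summed, where a small value also marks strands that vary little. No guide was among the 3 nearest miRNAs of another guide. miR-16-5p lay nearest to miR-98-5p (0.0603), miR-28a-3p (0.0700) and miR-669o-5p (0.117), which like it had their highest old value in old replicate 1. miR-15b-5p lay nearest to miR-31-5p (0.0670), miR-181b-5p (0.0904) and miR-425-5p (0.101). miR-15a-5p lay nearest to miR-151-5p (0.0647), miR-29a-5p (0.0710) and miR-23a-3p (0.0980). The nearest to miR-497a-5p were miR-451a (0.143), miR-3068-5p (0.145) and miR-192-5p (0.147), at nearly equal distance. Of these, miR-451a is a listed red blood cell marker and miR-192-5p a listed liver marker. Counting error enters these distances, as miR-497a-5p held 64 to 119 counts per library. The nearest to miR-195a-5p were miR-29c-3p (0.241), miR-34b-5p (0.278) and miR-29b-3p (0.289). Between guides of 1 cluster, miR-195a-5p and miR-497a-5p differed by 0.603. Counting error enters that value, as miR-195a-5p held only 9 to 32 counts per library. miR-15a-5p and miR-16-5p differed by 0.252, rank 67 from miR-16-5p and rank 74 from miR-15a-5p. miR-15b-5p differed from miR-16-5p by 0.193 and from miR-15a-5p by 0.199, ranks 31 and 33 among the other tested mature miRNAs.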

How the data were processed

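The deposited table held raw read counts for mature miRNA loci, made by the authors with featureCounts (version 2.0.6) and no option for strand, overlaps or multi-mapping, per the file headers. BWA and mm10 are named in the submitters' processing notes, and trimming is not given in the sources used here. A read that overlaps 2 features is unassigned by that command. Loci were named by exact position from RefSeq sequences (1734 of 2110), or else from GENCODE M21 miRNA genes (358), or from another locus of the same identifier; 12 had no name. The members and lists were chosen with earlier results of these data known. Old and young were compared over 347 loci passing filterByExpr (minimum count 10, minimum total 15) with edgeR 4.0.16 in R 4.3.3 (quasi-likelihood test, TMM, Benjamini-Hochberg over all tested loci, threshold 0.05). Named were all members, other tested strands with their seed, and the 3 nearest miRNAs of each guide; cell type markers were all those listed for each type. Guide ratios had two-sided exact permutation tests (scipy 1.17.1). Alternatives were DESeq2 1.42.0, other scalings, no filter, summed copies, a replicate block and each library left out. The test was checked on simulated counts. Binomial and Poisson intervals cover counting error only. The approximate intervals of log2 fold changes rest on the SE of edgeR's fit and also hold the spread between libraries.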

Additional observations from a re-analysis of the deposited data

How the results depend on the processing

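The count of members past the threshold, 0 of 7 by edgeR, was 1 with DESeq2 and 1 with miR-21a-5p left out of the totals, and 0 to 1 when a library was left out; the member called was miR-15b-3p each time. Its direction and those of miR-15b-5p and of both miR-16-5p loci held in all 13 alternatives. With a library left out, miR-15a-5p ranged from -0.020 (without old replicate 2) to 0.20, miR-497a-5p from -0.13 (without old replicate 3) to 0.24 and miR-195a-5p from -0.30 (without old replicate 2) to 0.43; the cause was not tested. With the replicate number as a block, 0 members passed (miR-15b-3p log2 fold change -0.81, adjusted p = 0.164 by edgeR), and over all loci the calls fell to 6, against 15. The libraries share only a number: same-numbered deviations correlated at -0.134, 0.024 and -0.146, and 0 of 6 libraries correlated best with its own number. For the ratio of miR-15a-5p to miR-15b-5p, pairing by number cannot change the mean difference of 0.37, and the exact sign-flip p was 0.25, the smallest 3 pairs allow. Among guide ratios, old minus young log2 differences ranged, with a library left out, from -0.20 to 0.27 for miR-15a-5p to miR-195a-5p, from -0.25 to 0.17 for miR-15a-5p to miR-497a-5p and from -0.49 to 0.27 for miR-195a-5p to miR-497a-5p. Medians gave 0.36 for the first and -0.65 for the last; the cause was not tested. With miR-16-5p left out, the cluster shares differed by 3.13, -4.78 and 1.66 percentage points for Mir15a/Mir16-1, Mir15b/Mir16-2 and Mir497/Mir195a, against 1.6, -1.89 and 0.29 with it. Over all loci, calls numbered 15 by edgeR (12 higher in old), 21 with miR-21a-5p left out of the totals (13 higher), 23 of 340 by DESeq2 (14 higher), and 5 without old replicate 2 to 45 without old replicate 1. Low counts limit miR-195a-5p and the opposite arms other than miR-15b-3p and miR-497a-3p, and the 0 of miR-497a-3p lies at an overlapping locus.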
